A study of Mus musculus with 7 samples.

Results

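The 10 genes described here are a set tied to the secondary granules of neutrophils: Ltf, Camp, Ngp, Lcn2, Chil3, Cd177, Fcnb, Mmp8, Ceacam10 and the regulator Cebpe. They were taken by symbol from the 49315 genes of a raw-count table, and all 10 were found and tested among the 17920 genes that passed a filter on low counts. The libraries hold poly(A)-selected RNA of mouse bone marrow cells. All mice were fed chow and had undergone hindlimb ischemia, in which blood flow to a leg is blocked. The 4 knockout libraries (KO) carried the genotype miR-181a2b2-/-, which lacks the microRNA cluster of Mir181a-2 and Mir181b-2. The 3 control libraries (flox) carried miR-181a2b2flox/flox, the cluster flanked by loxP sites; the same samples are titled WT in the labels. The labels give no Cre driver, age or sex, and do not say whether each library is a different animal. The p-values therefore speak of the spread among these 7 libraries, part or all of which may be technical.

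Neutrophils load their granules in waves as they mature in the marrow. Primary (azurophil) granule genes such as Mpo are transcribed first, in promyelocytes. Secondary (specific) granule genes follow in myelocytes and metamyelocytes, under the transcription factor encoded by Cebpe, and their transcripts decline again in segmented cells. Marrow is the main site of this synthesis, so the level of these transcripts in whole marrow reflects the number of cells at that stage as well as the RNA each holds. In bulk samples fewer cells of a type and less RNA per cell cannot be told apart. Counts are relative to the whole library, so neither can be told apart from more RNA of other cells.

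Total counts ran from 43110251 to 48320848 in KO and from 46151300 to 51688514 in flox. On the first principal component (34.7% of variance) KO lay from -23.2 to -16.6 and flox from 5.48 to 58.7, where flox 1 stood apart. Flox 2 stood apart on the second (18.8%), at -41.9 against -9.54 to 21.7 in the other libraries. In flox 1 the B lineage markers summed to 64.1 CPM (counts relative to the scaled library size). They summed to 462 and 735 CPM in the other flox libraries and 761 to 1005 CPM in KO. Of the labels, the source field names bone marrow and the RNA isolation note names white adipose tissue. Granulocyte transcripts were abundant in every library: S100a9, a calcium-binding protein of neutrophils, averaged 9990 ± 1247 CPM in KO and 12989 ± 2744 CPM in flox (SD, n = 4 and n = 3). All 6 markers of gut epithelium, a list chosen with earlier results of these data known, passed the edgeR test as higher in KO. Over all 17920 tested genes 24 did so. The 6 markers stood at low levels, summing to 63.1 to 69.9 CPM in KO and 28.3 to 28.7 CPM in flox. Their part in the results below was not tested. The mature microRNAs of the deleted cluster cannot be read in poly(A) libraries, so the genotype labels were not checked by these counts.

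Shown first are mature microRNAs encoded by the deleted cluster and the promoter stretches searched for C/EBP motifs. The protein of Cebpe binds sites of that kind. Whether other loci encode the same mature sequences was not examined, and these counts do not show whether KO cells lacked them. The 5p strands of the deleted cluster share their seed, the bases 2 to 8 given in capitals, and both lie on the plus strand of chromosome 2 (GRCm38.p6, RefSeq).
mmu-miR-181a-5p (chr2:38852741-38852763): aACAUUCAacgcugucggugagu
mmu-miR-181b-5p (chr2:38853845-38853868): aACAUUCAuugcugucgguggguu

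The match to this seed in a transcript reads TGAATGT. It was found in the longest annotated 3' UTR (GENCODE M21) of 0 of the 10 genes, against 2649 of the 14319 tested genes with a 3' UTR (18.5%). The 3' UTRs of the 10 genes were short, from 56 bases in Camp to 947 bases in Mmp8, where the median over those tested genes was 1301 bases. No match says only that these letters are absent from these windows. Of the 10 genes, Fcnb and Lcn2 lie on the same chromosome as the deleted cluster, 10.8 and 6.46 Mb away from Mir181a-2.

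Promoter sequence, taken as 250 bases before to 50 after the gene start, was held for 9 of the 10 genes in the RefSeq table. The core of a C/EBP motif, searched as TTNNGNAA on both strands, lay in 7 of these 9 windows (Ltf, Ngp, Lcn2, Chil3, Cd177, Fcnb and Mmp8), against 40.7% of 27025 promoter windows. The ETS-type core GAGGAA, which PU.1 can bind, lay in 5 of 9, against 28.3%. These windows follow the RefSeq starts. The Lcn2 window lies wholly inside the gene as GENCODE annotates it, past its first start, so its matches are not upstream of that start, and only 89 bases of the Camp window lie before the first GENCODE start. No match to one motif overlapped a match to the other. The stretches before the first annotated start of Ltf, Ngp and Fcnb are given below on the gene's own strand, because they belong to the textbook secondary granule gene, to the most abundant of the set and to the one with the lowest p. Capitals mark matches to TTNNGNAA.
Ltf (chr9:111019042-111019270, plus strand): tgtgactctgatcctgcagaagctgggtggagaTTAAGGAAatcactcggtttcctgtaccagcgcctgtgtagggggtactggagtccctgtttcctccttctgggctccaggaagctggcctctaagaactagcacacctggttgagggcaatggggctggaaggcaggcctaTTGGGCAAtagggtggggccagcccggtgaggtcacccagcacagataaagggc
Ngp (chr9:110419558-110419746, plus strand): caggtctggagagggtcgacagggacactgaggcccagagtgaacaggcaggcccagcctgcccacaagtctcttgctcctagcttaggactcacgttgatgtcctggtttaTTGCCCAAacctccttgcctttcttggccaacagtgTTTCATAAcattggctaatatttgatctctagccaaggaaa
Fcnb (chr2:28084886-28085128, minus strand): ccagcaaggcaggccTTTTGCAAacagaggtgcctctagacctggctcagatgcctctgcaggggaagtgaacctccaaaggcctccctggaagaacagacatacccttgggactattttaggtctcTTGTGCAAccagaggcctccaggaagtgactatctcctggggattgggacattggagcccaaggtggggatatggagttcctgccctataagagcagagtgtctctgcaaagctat

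The same 8 letters, TTGGGCAA, stood at positions -75 to -68 from the RefSeq start of Ltf and at -11 to -4 from that of Ngp, past the stretch shown. Read on the opposite strand, they also stood at -138 to -131 of Ngp, printed above as TTGCCCAA. The Camp and Ceacam10 windows held no match to TTNNGNAA. A match describes letters, not a bound site.

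KO was compared with flox for each gene. All 10 genes had lower estimates in KO, with log2 fold changes (KO minus flox) from -0.50 for Ceacam10 to -0.17 for Mmp8. The median was -0.39, against -0.01 over all 17920 tested genes, of which 51.9% had estimates below 0. None of the 10 passed the edgeR quasi-likelihood test adjusted over all genes (lowest adjusted p = 0.141, for Fcnb), where 0.0112% of all tested genes were called lower in KO. A p that misses the threshold does not show that a gene was at the same level in both groups. At an unadjusted p under 0.05 the count was 8 of 10, beside 8.17% of all tested genes that were lower at that level. In 4 of 10 genes (Ltf, Camp, Fcnb and Ceacam10) every KO library lay below every flox library, beside 7.41% of tested genes. Exact two-sided permutation over all 35 assignments of the libraries, unadjusted, gave p = 0.0286 for Ltf and Fcnb, the smallest this design can give, and 0.0571 for Camp and Ceacam10. For Ngp, Chil3, Cd177 and Cebpe this p was 0.0857, for Lcn2 0.171 and for Mmp8 0.286. The genes follow each other across libraries, so they are not independent of one another. These genes and the lists below were also chosen with earlier results of these data known. Their counts beside the shares of all tested genes are therefore descriptions only.

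**Figure D1:**
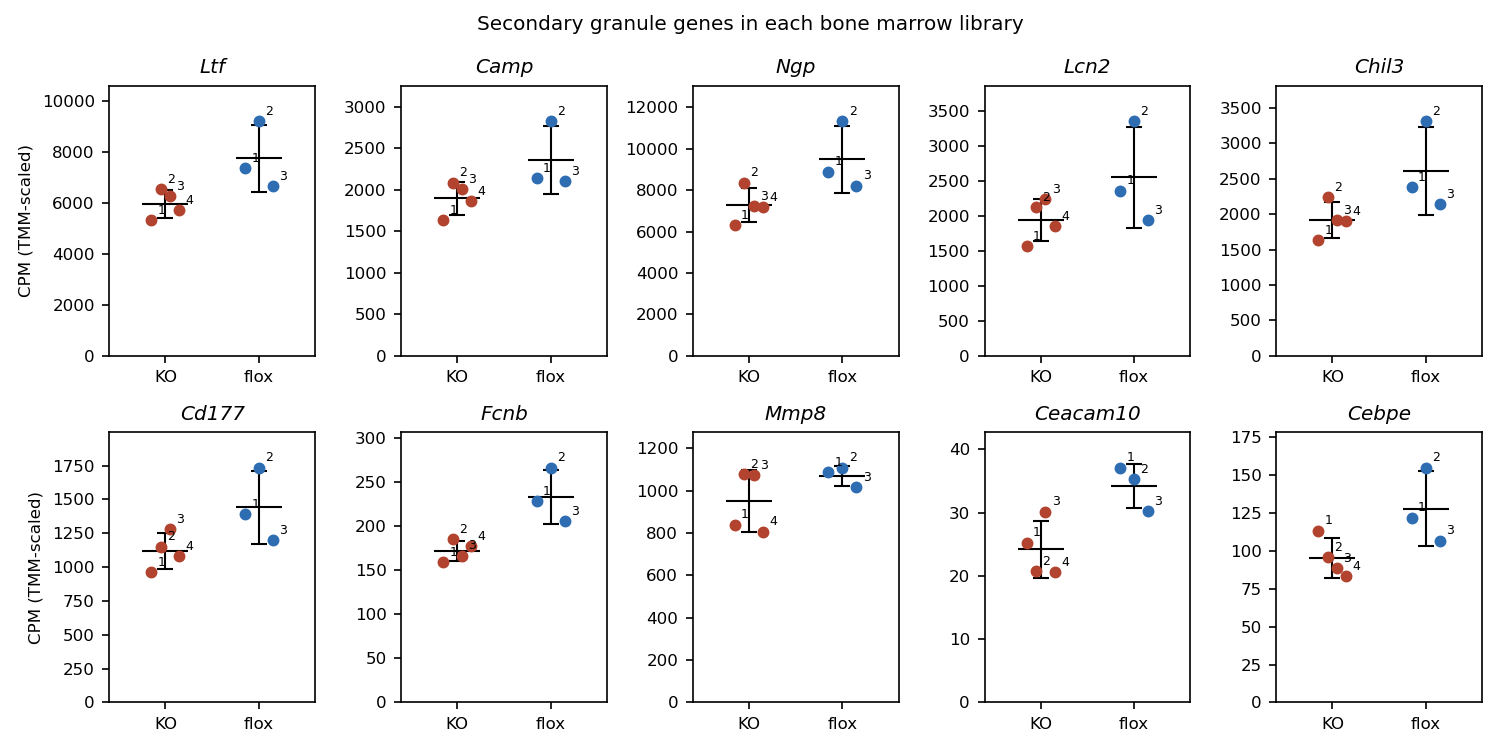
CPM of each gene (vertical axes, linear from 0) in the 4 KO and 3 flox libraries. Points are libraries numbered by replicate, and bars are the mean and SD; flox 2 is the highest library for 9 of the 10 genes, and KO and flox do not overlap for Ltf, Camp, Fcnb and Ceacam10.

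Flox 2 weighed on the size of the difference. It was the highest of the 7 libraries for 9 of 10 genes, while flox 1 was highest for Ceacam10. Without flox 2 the median log2 fold change was -0.21, all 10 estimates stayed below 0, and 2 of 10 genes had an unadjusted p under 0.05, beside 5.88% of all genes tested in that fit that were lower at that level. With genes that follow each other, so small a count is not read as a result about the set. The log2 fold changes of Camp (-0.14), Ltf (-0.22), Ngp (-0.22) and Cebpe (-0.24) were then closer to 0 than that of Fcnb (-0.32). The count at an unadjusted p under 0.05 was 3 of 10 without KO 1 (6.77% of all genes lower), 5 of 10 without KO 3 (5.53%) and 5 of 10 without KO 4 (5.78%). It was 8 of 10 without KO 2 (6.8%), 8 of 10 without flox 1 (6.11%) and 9 of 10 without flox 3 (8.75%). Flox 3 was the lowest flox library for all 10 genes. KO 1 was the lowest of all 7 libraries for 7 genes, and KO 4 for the other 3.

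**Figure D2:**
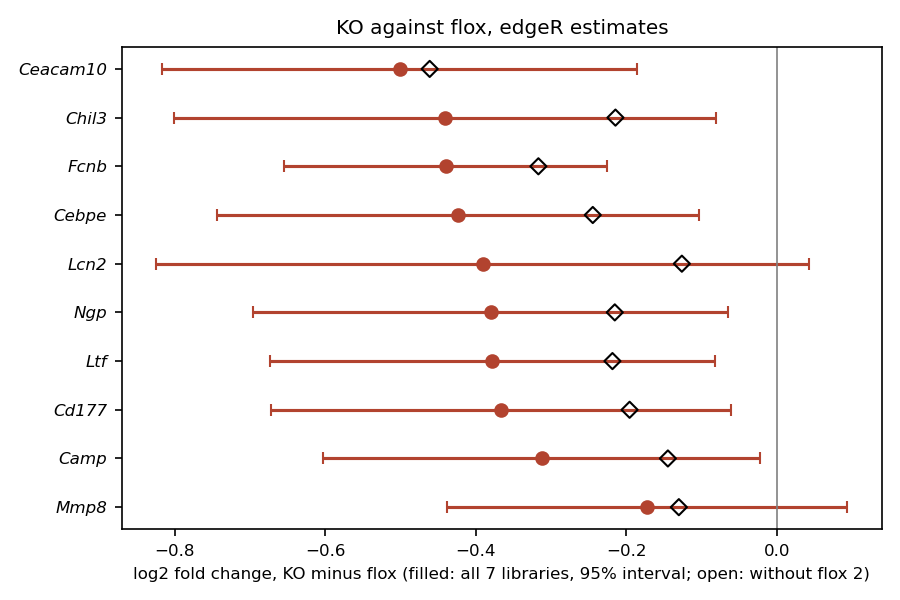
Log2 fold change of each gene, KO minus flox, from edgeR. Filled points with bars are estimates and 95% intervals over the 7 libraries, and open diamonds are the estimates without flox 2; all 20 marks lie below 0, and the bars of Lcn2 and Mmp8 cross it.

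Cebpe encodes C/EBP epsilon, the transcription factor that secondary granule gene expression depends on. The gene lies on chromosome 14 (54710360 to 54712174, minus strand, GRCm38). In CPM it stood at 113, 95.9, 88.6 and 83.1 in KO 1 to KO 4, against 122, 155 and 107 in flox 1 to flox 3. KO 1 lay inside the flox range and the other 3 KO libraries lay below it. KO minus flox came to -0.42 on the log2 scale (SE 0.14, 95% interval -0.74 to -0.10), and edgeR gave an adjusted p of 0.262.

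The antimicrobial proteins of the granule come next. Ltf encodes lactoferrin, an iron-binding protein that deprives microbes of iron (chromosome 9, 111019271 to 111042767). It stood at 5333, 6535, 6261 and 5723 CPM in KO, against 7370, 9206 and 6673 CPM in flox. The groups did not overlap, though KO 2 and flox 3 lay close together. On the log2 scale the difference was -0.38 (SE 0.13, 95% interval -0.67 to -0.08; adjusted p = 0.268 by edgeR).

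Camp encodes the cathelicidin precursor, from which a membrane-active peptide is cut (chromosome 9, 109847379 to 109849617). It stood at 1633, 2087, 2006 and 1868 CPM in KO, against 2139, 2828 and 2108 CPM in flox. The groups touched without overlapping, with KO 2 just under flox 3. The estimate was -0.31 on the log2 scale, with an SE of 0.13 and a 95% interval from -0.60 to -0.02 (adjusted p = 0.326, edgeR).

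Ngp encodes neutrophilic granule protein, a relative of the cathelicidins and cystatins (chromosome 9, 110419747 to 110423012). It was the most abundant of the set, at 6325, 8364, 7237 and 7195 CPM in KO, against 8895, 11322 and 8213 CPM in flox. KO 2 exceeded flox 3, so the groups overlapped by 1 library. Its log2 fold change was -0.38, with an SE of 0.14 and a 95% interval from -0.70 to -0.06 (adjusted p = 0.286, edgeR).

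Lcn2 encodes lipocalin 2, which binds the siderophores that bacteria use to take up iron (chromosome 2, 32384633 to 32388252). It stood at 1564, 2121, 2243 and 1848 CPM in KO, against 2359, 3350.0 and 1936 CPM in flox. KO 2 and KO 3 exceeded flox 3, and the flox libraries spread 1.73-fold, the widest flox spread of the 10 genes. For KO minus flox edgeR estimated -0.39 on the log2 scale (SE 0.19, 95% interval -0.82 to 0.04; adjusted p = 0.396), and -0.13 without flox 2.

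Chil3 encodes a chitinase-like lectin (Ym1) that macrophages can also make (chromosome 3, 106147554 to 106167564). It stood at 1630.0, 2244, 1915 and 1897 CPM in KO, against 2376, 3311 and 2136 CPM in flox. KO 2 exceeded flox 3. EdgeR gave -0.44 on the log2 scale (SE 0.16, 95% interval -0.80 to -0.08; adjusted p = 0.281), and -0.21 without flox 2. Its close relative Chil4 had 73 to 96 counts in KO and 99 to 117 in flox, against at least 77317 counts for Chil3 in every library; the sources used here do not say how reads matching both were counted. The 10 listed monocyte and macrophage markers, of which 0 were at 0 counts in any library, summed to 1585 to 1931 CPM in KO and 1865 to 2222 CPM in flox, and their part in the Chil3 values was not tested.

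Fcnb encodes ficolin B, a lectin of immature myeloid cells that recognises microbial sugars (chromosome 2, 28076378 to 28084885). It stood at 159, 186, 167 and 177 CPM in KO, against 229, 267 and 206 CPM in flox. Every KO library lay below every flox library, with the tightest KO spread of the 10 genes at 1.16-fold. The difference on the log2 scale was -0.44 (SE 0.10, 95% interval -0.65 to -0.23; adjusted p = 0.141 by edgeR). DESeq2 called Fcnb lower in KO (adjusted p = 0.0136), the only one of the 10 it called, where it called 0.799% of genes lower. With no filter on low counts edgeR also called it (adjusted p = 0.0258), where 0.0905% of genes were called lower. Over the 17 alternatives its adjusted p ran from 0.0136 to 0.328.

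Mmp8 encodes neutrophil collagenase, a matrix metalloproteinase (chromosome 9, 7558456 to 7568485). It stood at 840, 1078, 1075 and 807 CPM in KO, against 1087, 1109 and 1017 CPM in flox. KO 2 and KO 3 lay inside the flox range, and KO 1 and KO 4 lay below it. Its log2 fold change was the smallest of the set, -0.17 (SE 0.12, 95% interval -0.44 to 0.09; adjusted p = 0.57 by edgeR).

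Cd177 encodes a glycoprotein of the neutrophil surface and, in human cells, of the secondary granule membrane (chromosome 7, 24743983 to 24760311). It stood at 964, 1151, 1279 and 1083 CPM in KO, against 1394, 1735 and 1201 CPM in flox. KO 3 exceeded flox 3. KO minus flox was -0.37 on the log2 scale (SE 0.14, 95% interval -0.67 to -0.06; adjusted p = 0.287 by edgeR), and -0.20 without flox 2.

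Ceacam10 encodes a secreted member of the carcinoembryonic antigen-related family (chromosome 7, 24777206 to 24784657). It was the least abundant of the set, at 25.3, 20.7, 30.2 and 20.6 CPM in KO, against 37.1, 35.3 and 30.3 CPM in flox. The groups did not overlap, but KO 3 (30.18 CPM) all but met flox 3 (30.28 CPM). Of the set it had the largest estimate, a log2 fold change of -0.50 (SE 0.14, 95% interval -0.82 to -0.19; adjusted p = 0.22 by edgeR), and -0.46 without flox 2. Cd177 and Ceacam10 are neighbours, 16.9 kb apart with 0 protein-coding genes between them. Camp, Ngp and Ltf lie within one stretch of chromosome 9, with 570 kb between Camp and Ngp and 596 kb between Ngp and Ltf, and 8 and 20 protein-coding genes in those gaps.

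Levels between genes were compared per kilobase of annotated exon, as RPKM, which divides the CPM by the exon length in kilobases. The order from the top in KO was Ngp, Camp, Ltf, Chil3, Lcn2, Cd177, Mmp8, Fcnb, Cebpe and Ceacam10, and it was the same in flox. Ngp stood at 5958 ± 684 RPKM in KO and 7755 ± 1337 RPKM in flox, and Ceacam10 at 16.2 ± 3.04 and 22.9 ± 2.36 RPKM in KO and flox (SD, n = 4 and n = 3). Cd177 (394 ± 46.4 RPKM in KO, 508 ± 95.2 RPKM in flox) and Mmp8 (392 ± 60.5 RPKM in KO, 442 ± 19.8 RPKM in flox) did not differ beyond their spread. In flox the mean ± SD ranges of Camp and Ltf, of Ltf and Chil3, and of Chil3 and Lcn2 also overlapped. These ranges are across libraries and do not compare genes within a library. Within each of the 7 libraries Camp exceeded Ltf in RPKM, with Ltf over Camp from 0.673 to 0.757. Together the 10 genes took 1.90% to 2.42% of all counts in KO and 2.40% to 3.29% in flox, and in both groups Ngp and Ltf made up most of this share. Summed, they stood at 21369 ± 2264 CPM in KO and 27650 ± 5050 CPM in flox, with KO 2 just above flox 3.

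Most of the set followed one pattern from library to library. Across the 7 libraries, Pearson's r of log2 CPM between pairs of the 10 genes ran from 0.42 to 0.996 with a median of 0.76. The pairs share their libraries and their scaling, and these values are a description. Ngp and Chil3 were the closest pair, and Cebpe and Mmp8 the least alike. With group means taken out the median was 0.64, and the lowest value was -0.12. Ltf lay nearest to the mean profile of the set, with a root mean square difference of 0.02 on the log2 scale, and Ceacam10 (0.21), Cebpe (0.17) and Mmp8 (0.15) lay farthest from it. In KO 1, where 7 genes reached their lowest level, Cebpe had its highest KO value. In KO 2, where 6 genes had their highest KO value, Ceacam10 was near its lowest.

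**Figure D3:**
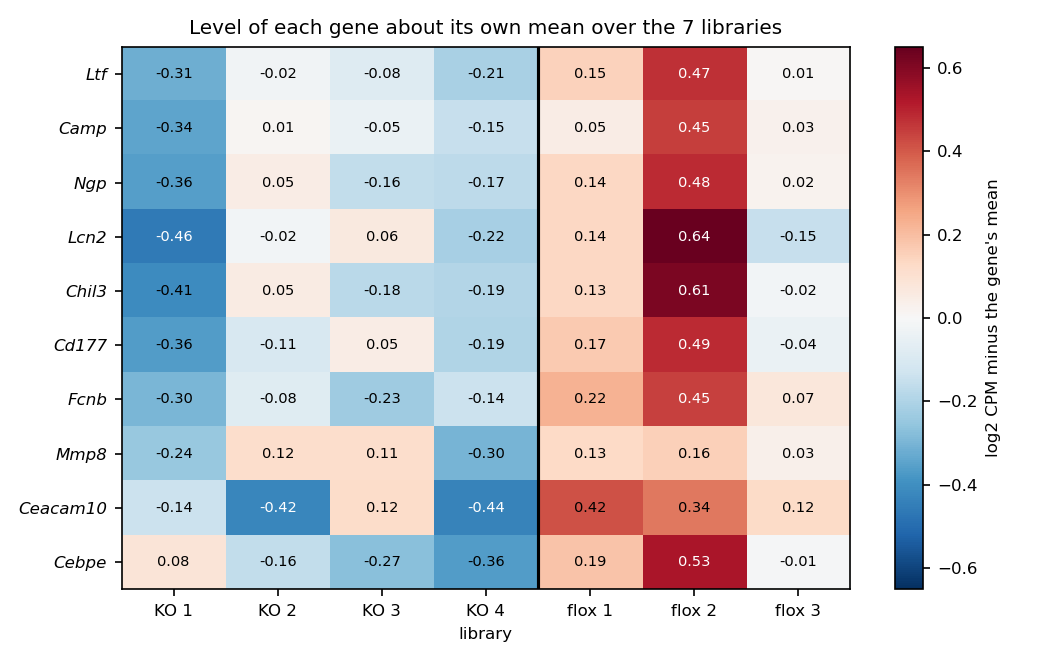
Level of each gene (rows) in each library (columns, KO left and flox right of the line) as log2 CPM minus the gene's mean over the 7 libraries. Red is above and blue below that mean; the flox 2 column is the reddest, and Mmp8, Ceacam10 and Cebpe depart from the pattern of the upper rows.

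Ratios within a library set one gene against another. Ltf over Ngp, per length, was 0.291 ± 0.014 in KO and 0.290 ± 0.003 in flox (SD, n = 4 and n = 3) and ran from 0.277 to 0.306 in KO and from 0.288 to 0.293 in flox. Ltf over Cebpe was 16.9 in KO 1 and 24.5 to 25.4 in the other KO libraries, against 21.4 to 22.5 in flox. Mmp8 over Cebpe was 5.18 ± 1.06 in KO and 4.37 ± 0.63 in flox, a difference within the spread between libraries. None of the 8 ratios computed reached an exact two-sided permutation p under 0.05; the lowest was 0.171, unadjusted, for Ltf over Camp and for Fcnb over Mmp8.

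Beside the set stand other granulocyte genes, of which edgeR called 0 in either direction. Among 16 further genes of secondary and gelatinase granules, 15 had estimates below 0, with a median log2 fold change of -0.32. Of the 16, 13 were lower at an unadjusted p under 0.05, beside 8.17% of all tested genes. DESeq2 called 1 lower, Itgam, where it called 0.799% of genes lower. Those with the lowest p were Itgam, the integrin chain stored in granule membranes (-0.37, edgeR adjusted p = 0.186), Cybb, the membrane subunit of the phagocyte oxidase (-0.29, 0.232), Mmp25, a membrane-bound metalloproteinase (-0.33, 0.236), and Chil1, a chitinase-like protein (-0.37, 0.263). Of 12 listed primary granule genes 11 were tested, all with estimates below 0 and a median of -0.58. At an unadjusted p under 0.05, 8 were lower, beside the same 8.17%, and DESeq2 called 2 lower, Prss57 and Elane. The lowest p in this list belonged to the serine protease genes Prss57 (-0.65, edgeR adjusted p = 0.22) and Elane (-0.59, 0.231), the lysosomal hexosaminidase gene Hexa (-0.32, 0.23) and the peroxidase gene Mpo (-0.58, 0.245). The summed secondary set over the summed primary list was 5.72 ± 0.83 in KO and 5.09 ± 0.48 in flox (exact two-sided permutation p = 0.343, n = 4 and n = 3).

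Late neutrophil genes had a median of -0.15 with 14 of 16 estimates below 0. Of these, 3 had an unadjusted p under 0.05, beside 8.17% of all tested genes that were lower at that level. The calprotectin genes S100a8 (-0.40, edgeR adjusted p = 0.3) and S100a9 (-0.38, 0.327), the formyl peptide receptor gene Fpr2 (-0.30, 0.337) and the receptor gene of granulocyte colony-stimulating factor, Csf3r (-0.30, 0.429), had the lowest p of that list. The set over this list, as summed CPM, was 1.03 ± 0.04 in KO and 1.04 ± 0.03 in flox. Most of the list's sum came from S100a8 and S100a9. Their means were 7089 and 9990 of 20851 CPM in KO, and 9323 and 12989 of 26571 CPM in flox. The ratio therefore says little about the other late neutrophil genes. Regulators of granulocyte fate were split, with 7 of 12 estimates below 0 and a median of -0.08. At an unadjusted p under 0.05, 2 were lower and 1, Trib1, was higher. Over all 17920 tested genes, 1464 were lower and 1056 higher at that level. Csf3r is in both this list and the late neutrophil list. DESeq2 called 0 in these lists and 0 of the proliferation genes, none of which had an unadjusted p under 0.05. Gfi1, a repressor needed for neutrophil formation, had -0.37 (edgeR adjusted p = 0.267), Spi1, which encodes PU.1, had -0.26 (0.268), Cebpa, which acts before Cebpe, had -0.17 (0.39) and Trib1, which promotes the breakdown of C/EBP alpha, had 0.20 (0.346). Proliferation genes had a median of 0.02, with Plk1 at -0.12 (edgeR adjusted p = 0.638) and Aurkb, Ccnb2 and Birc5 between 0.05 and 0.07.

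**Figure D4:**
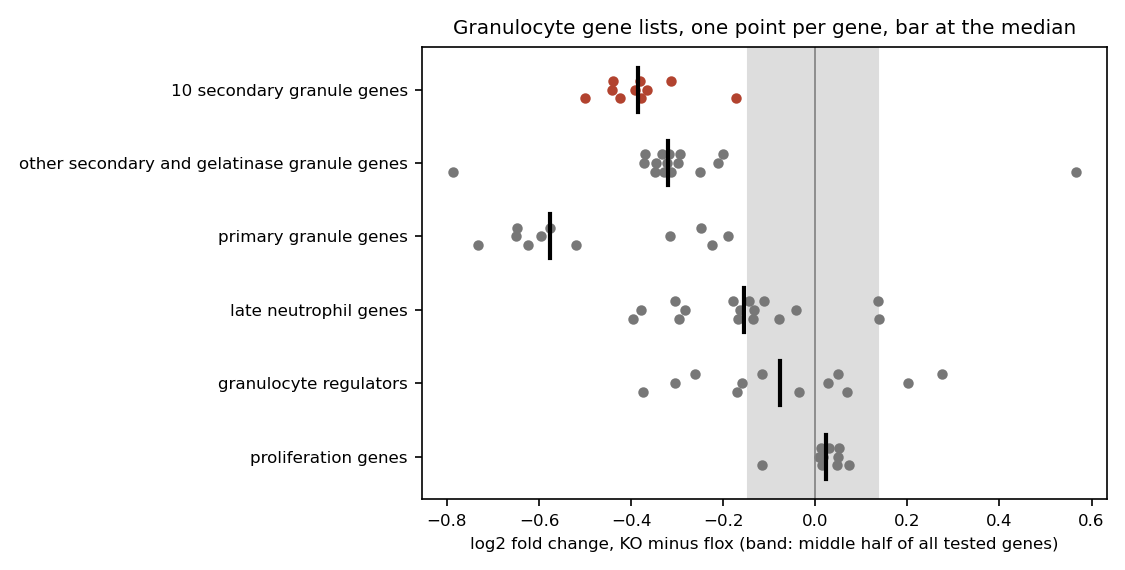
Log2 fold change, KO minus flox, of each tested gene in 6 lists (1 point per gene, bar at the list's median). The grey band runs from the lower to the upper quartile of all tested genes, -0.15 to 0.14; the 10 secondary granule genes and the primary granule genes lie to the left of it, and the proliferation genes inside it.

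Markers of other marrow cells also stood at different levels in the groups. The 8 erythroid markers, all with estimates above 0 and 0 of them at 0 counts, summed to 54153 to 71711 CPM in KO and 33954 to 56671 CPM in flox. Flox 2, highest for 9 of the 10 granule genes, held the lowest erythroid sum. All 10 B lineage markers had estimates above 0, at sums of 761 to 1005 CPM in KO and 64.1 to 735 CPM in flox. Eosinophil markers, another granulocyte class, summed to 711 to 1754 CPM in KO and 1566 to 1796 CPM in flox, with 3 of 5 estimates below 0. Megakaryocyte markers summed to 325 to 484 CPM in KO and 427 to 821 CPM in flox. All 6 had estimates below 0 (median log2 fold change -0.65), 5 of them at an unadjusted p under 0.05. Stroma markers summed to 318 to 489 CPM in KO and 506 to 920.1 CPM in flox. All 6 had estimates below 0 (median -0.79), 4 of them at that level, beside 8.17% of all tested genes. DESeq2 called 1 megakaryocyte and 2 stroma markers lower, where it called 0.799% of genes lower. T cell markers summed to 53.3 to 64.5 CPM in KO and 45.1 to 49.5 CPM in flox, with 5 of 5 estimates above 0. All 10 monocyte and macrophage markers had estimates below 0, with a median of -0.17. Uniformly lower estimates in KO were thus not particular to the granulocyte lists. No marker in these lists was at 0 counts in any library, and their part in the granule gene values was not tested.

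The genes outside the set whose profile over the 7 libraries was most like it were App, Sept5, Trem3, 4930438A08Rik, Plin3, Card9, Pglyrp1, Pram1, Mvd and Hk3, from nearest to less near. The measure was the root mean square difference from the set's mean profile in centred log2 CPM, which ran from 0.03 for App, the amyloid precursor protein gene, to 0.05 for Hk3, a hexokinase of myeloid cells, among 9571 genes compared. Pglyrp1, a bactericidal peptidoglycan-binding protein of neutrophil granules, is also in the list of other granule genes. For App the log2 fold change was -0.37 (edgeR adjusted p = 0.22), for Sept5, a septin gene, -0.44 (0.166), and for Pglyrp1 -0.32 (0.28). The profile used to pick these genes holds the difference between KO and flox. Estimates near those of the set therefore follow from the choice and are not a separate result.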

How the data were processed

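The authors deposited raw counts of reads per Ensembl gene. Per the submitters' processing notes, the tools were Trimmomatic 0.36, STAR 2.5.2b and featureCounts in Subread 1.5.2, and the build was GRCm38. Annotation release, strand setting and the treatment of multi-mapping reads: not given in the sources used here. Columns were matched to samples by library code, and 0 columns were left unmatched.

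The count table was analysed in R 4.3.3 with edgeR 4.0.16 (filterByExpr with a minimum count of 10, TMM, robust glmQLFit and glmQLFTest, KO minus flox, two-sided), adjusted by Benjamini-Hochberg over all 17920 genes at a threshold of 0.05. SE and 95% intervals derive from its F statistic. CPM were scaled by TMM; for log2 CPM the prior count was 2. DESeq2 1.42.0 and limma-voom (limma 3.58.1) were alternatives. Symbols, positions, exon lengths and 3' UTRs came from GENCODE M21 (GRCm38), matching 49056 of 49315 IDs, and promoters and microRNAs from RefSeq (GRCm38.p6). The edgeR step was tested on simulated data. Chi-square per degree of freedom between libraries of a group was at least 19.0, so no library was taken for another deposited again; this does not show that each came from its own animal.

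The genes and lists were chosen with earlier results of these data known. All 10 genes are named, then up to 4 of each granulocyte list by lowest p, and the 10 genes of mean log2 CPM of at least 3 nearest in profile. App, Sept5, Pglyrp1 and Hk3 were picked for description after their values were seen.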

Additional observations from a re-analysis of the deposited data

How the results depend on the processing

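All 170 re-estimates of the 10 genes (17 alternatives each) stayed below 0, and 2 passed the threshold, both for Fcnb. The set's median log2 fold change ran from -0.50 without flox 3 to -0.21 without flox 2. Of the 10 genes, 1 was called with DESeq2 and 1 with no filter on low counts, against 0 in the main test, and 0 when any single library was left out. Over all genes the main test called 26. DESeq2 called 365, limma-voom 13, no filter on low counts 112 and non-robust dispersion 16, and leaving out single libraries gave 2 to 14. With the replicate number as a block, on libraries 1 to 3 of each group, 4 genes were called, 0 of the 10 among them, with a set median of -0.35. Same-numbered libraries had correlations of -0.02, 0.08 and 0.02 in their deviations from the group means, so the numbers were not taken to pair them, and not every library correlated best with its own number. Leaving the granulocyte lists out of library sizes and TMM, chosen after seeing the data, gave 29 calls and a set median of -0.38. The cause of the changed counts was not tested. With 4 and 3 libraries, exact permutation cannot go below 0.0286, and Poisson error is small at these depths beside the spread between libraries.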

Other observations

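Olfm4, which encodes olfactomedin 4 of a subset of neutrophils' secondary granules and is also known from intestinal crypts, was the 1 gene of 16 other granule genes with an estimate above 0, and was chosen for mention after its values were seen. It stood at 62.6, 42.6, 171 and 83.9 CPM in KO 1 to KO 4, against 21.6, 103 and 58.1 CPM in flox 1 to flox 3. The groups overlapped widely, and the log2 fold change was 0.57 (SE 0.68, edgeR adjusted p = 0.788). Its order over the flox libraries had flox 2 highest, as for 9 of the 10 secondary granule genes, but KO 3 was highest of all 7.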
